A study of Mus musculus with 3 samples.

Results

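The genes described here encode the nuclear subunits of succinate dehydrogenase (complex II), ubiquinol-cytochrome c reductase (complex III), cytochrome c oxidase (complex IV) and ATP synthase (complex V), together with the electron carrier cytochrome c. Members were the gene probes whose accession maps to Sdha, Sdhb, Sdhc, Sdhd, Cyc1, Cycs or a RefSeq symbol that begins with Uqcr, Cox4 to Cox8 or Atp5. The rule gave 48 of 15720 named genes, read by 60 of 41174 gene probes, with 4 genes in complex II, 9 in complex III, 17 in complex IV, 17 in complex V and cytochrome c. Of the 60 probes, 59 exceeded the authors' reliability limit on at least 2 arrays and were tested. The remaining probe, that of the lung isoform gene Cox4i2, was reliable on 0 arrays.

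The arrays compared freshly dissected cortex from 2 genotypes of adult mouse, aged 16 weeks. Mutant animals carried 1 wild-type and 1 exon 2 deletion allele of Gtf2i, written Gtf2i(+/Δex2), and controls were wild type, WT (+/+). Both shared a background of 98.4% C57BL/6J and 1.6% 129Sv/CD1, and each hybridised RNA was pooled from 3 to 5 mice. Each of 3 two-colour arrays held a mutant and a wild-type pool, and replicate 2 had the opposite dyes of the other arrays, which carried mutant RNA in Cy3. Whether each array had pools of its own is not stated, so p-values cover only array-to-array spread, which may be technical. No cell type was isolated, and the tissue label names the cortex only.

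Electrons from succinate enter the respiratory chain through complex II, pass from ubiquinol to cytochrome c through complex III, and reach oxygen through complex IV. Complexes III and IV pump protons across the inner mitochondrial membrane, and complex V uses the return flow of protons to make ATP, on which synaptic transmission in cortex draws heavily. Complex II is encoded wholly in the nucleus, whereas the catalytic core of complex IV and parts of complexes III and V are encoded in mitochondrial DNA, which none of the member probes read.

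The promoters of many nuclear genes of the chain carry sites for nuclear respiratory factor 1 and for the ETS-family factor GABP. Sequences from RefSeq (GRCm38.p6), 250 bases before to 50 bases after the start of transcription, were found for 37 of the 48 genes. They were searched on both strands for the consensus motif of nuclear respiratory factor 1, in which 1 base may vary, for CCGGAAG (ETS factors) and for AAGATGGC (YY1). The first occurred in 10 of the 37 genes (27.0%) and in 5.19% of all 27025 genes with a sequence, the ETS motif in 13 (35.1%) against 9.93%, and the YY1 motif in 3 (8.11%) against 3.19%. Below are the 200 bases before the start of 5 genes whose transcripts passed the test described later, with matches in capitals: that of nuclear respiratory factor 1 in Atp5h (plus strand) and Atp5k (both strands), and CCGGAAG or its reverse complement in Atp5h, Cox6b1 and Uqcr11. Atp5h, Atp5k and Cox6b1 were lower in the mutant, Uqcr11 was higher, and Atp5b, which had the lowest ratio of any ATP synthase probe, has none of the 3 motifs in its window.
Atp5h: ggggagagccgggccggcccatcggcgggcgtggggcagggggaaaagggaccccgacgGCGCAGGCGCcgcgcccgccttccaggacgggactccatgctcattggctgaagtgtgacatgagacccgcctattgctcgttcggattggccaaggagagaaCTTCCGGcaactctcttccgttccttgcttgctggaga
Atp5k: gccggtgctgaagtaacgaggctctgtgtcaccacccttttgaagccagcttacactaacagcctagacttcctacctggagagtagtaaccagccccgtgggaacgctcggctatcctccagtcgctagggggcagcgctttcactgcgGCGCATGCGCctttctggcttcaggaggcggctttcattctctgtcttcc
Cox6b1: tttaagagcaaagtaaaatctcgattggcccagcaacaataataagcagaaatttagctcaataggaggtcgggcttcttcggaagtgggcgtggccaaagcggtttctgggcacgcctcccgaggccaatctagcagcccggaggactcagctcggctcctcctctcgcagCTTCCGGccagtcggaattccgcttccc
Uqcr11: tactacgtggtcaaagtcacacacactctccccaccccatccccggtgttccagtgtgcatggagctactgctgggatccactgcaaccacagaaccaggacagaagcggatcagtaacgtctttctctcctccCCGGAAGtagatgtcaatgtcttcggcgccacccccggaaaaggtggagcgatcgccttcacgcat
Atp5b: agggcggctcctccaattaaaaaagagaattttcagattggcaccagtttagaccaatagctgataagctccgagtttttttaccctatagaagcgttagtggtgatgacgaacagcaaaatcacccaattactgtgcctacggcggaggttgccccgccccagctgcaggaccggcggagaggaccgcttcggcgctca
These stretches lie at chr11:115419920-115420119 (- strand), chr5:108434400-108434599 (- strand), chr7:30626115-30626314 (- strand), chr10:80406822-80407021 (- strand) and chr10:128083107-128083306 (+ strand). In Atp5h the nuclear respiratory factor 1 match begins at position -141 from the start and the ETS match at -38. Genes with a probe that was lower held the first motif in 5 of 17, the ETS motif in 8 of 17 and the YY1 motif in 3 of 17. Those with a probe that was higher held them in 0, 1 and 0 of 4, and genes with no call in 5, 4 and 0 of 16. A match describes letters in a sequence and does not show binding.

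Each value is a log2 ratio, mutant against wild type, from the channel intensities that the authors deposited. That direction is likely and rests on the sample titles, the deposited column descriptions and the Cy3-labelled control spots, whose median ratio was 4.51, -4.54 and 4.58 on replicates 1, 2 and 3. Over the 27531 tested probes of the array, ratios correlated with r = 0.822 between replicates 1 and 2, 0.783 between 1 and 3 and 0.625 between 2 and 3. Gtf2i itself read -0.34, -0.34 and -0.26 at its brighter probe, a mean of -0.32 ± 0.05 (SD, n = 3, limma adjusted p = 0.00506), equal to 80.4% of wild type. Its other probe read -0.46, -0.44 and -0.52 (mean -0.47 ± 0.04, limma adjusted p = 0.00261), equal to 72.0% of wild type. The position of these probes with respect to the deleted exon was not used here. Markers of cortical neurons were present, with 10 of 10 genes reliable on all 3 arrays. Array means of their probes were -0.20, -0.21 and -0.11 (7 of 14 probes lower, 2 higher), those of 4 blood genes were -0.40, -0.45 and -0.04 (4 of 7 probes lower), and those of 6 thalamic genes were -0.04, -0.05 and 0.65 (1 of 12 probes higher). Astrocyte markers averaged -0.26, -0.21 and -0.22 (4 of 8 probes lower, 1 higher), oligodendrocyte markers -0.17, -0.20 and -0.05 (3 of 8 lower, 1 higher), striatal markers -0.28, -0.36 and 0.08 (2 of 8 lower), and choroid plexus markers 0.20, 0.22 and 0.19 (3 of 6 higher). By the same limma test at an adjusted p under 0.05, 18.9% of all tested probes were lower and 15.0% higher. The part of these markers in the ratios of respiratory genes was not tested. In whole cortex fewer cells of a type and less RNA per cell cannot be told apart.

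More member probes were lower than higher in the mutant cortex, and the falls were small. In the limma fit, 24 of the 59 tested probes were lower at an adjusted p under 0.05, or 40.7%, where 18.9% of all tested probes were. Rises were called for 6 member probes, or 10.2%, against 15.0% of all tested probes. Calls were more frequent among bright probes, and 53 of the 59 lay among the 6883 brightest tested probes, of which 26.7% were lower and 23.7% higher. Of the 53, 23 were lower, or 43.4%, and 6 were higher, or 11.3%. The median ratio over the member probes was -0.12, with medians of -0.13, -0.15 and -0.12 on replicates 1 to 3, while the median over all tested probes was 0.00 and over the 6883 brightest -0.01. By gene, 22 of 47 had a probe that was lower, 5 had a probe that was higher and 20 had no called probe. Leaving out replicate 1 left 9 member probes lower and 1 higher, where 5.37% and 3.37% of all tested probes were called.

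ATP synthase carried most of the falls. Of its 17 genes, 13 had a probe that was lower and 0 had a probe that was higher. Of its 23 probes 15 were lower, or 65.2%, beside 18.9% of all tested probes. All 23 belong to the 6883 brightest probes, of which 26.7% were lower and 23.7% higher. Its catalytic head and central stalk, where rotation is turned into ATP, are built from the products of Atp5a1, Atp5b, Atp5c1, Atp5d and Atp5e. Atp5b, the catalytic beta subunit, read -0.57, -0.52 and -0.60 on the 3 arrays at probe A_51_P207636, a mean of -0.56 ± 0.04 (SD, n = 3, limma adjusted p = 0.00219), equal to 67.8% of wild type. A second probe, A_52_P553841, read -0.31, -0.40 and -0.36 (mean -0.36 ± 0.05, limma adjusted p = 0.00406). Both probes were below 0 on every array, and their values did not overlap. The remaining Atp5b probe lay at the top of the signal range and is described with the other such probes. Atp5d, the delta subunit of the central stalk, read -0.26, -0.25 and -0.29 (mean -0.27 ± 0.02, limma adjusted p = 0.0064). Atp5e, the small epsilon subunit beside it, read -0.34, -0.23 and -0.37 (mean -0.31 ± 0.07, limma adjusted p = 0.00689). Neither kept its call without replicate 1 (limma adjusted p = 0.0683 for Atp5d and 0.0658 for Atp5e), whereas both Atp5b probes did. The alpha and gamma subunit genes gave no call. Atp5a1 read -0.12 ± 0.13 and 0.08 ± 0.22 at its 2 probes and Atp5c1 0.13 ± 0.05, and the second Atp5a1 probe and that of Atp5c1 were near the top of the signal range.

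**Figure D1:**
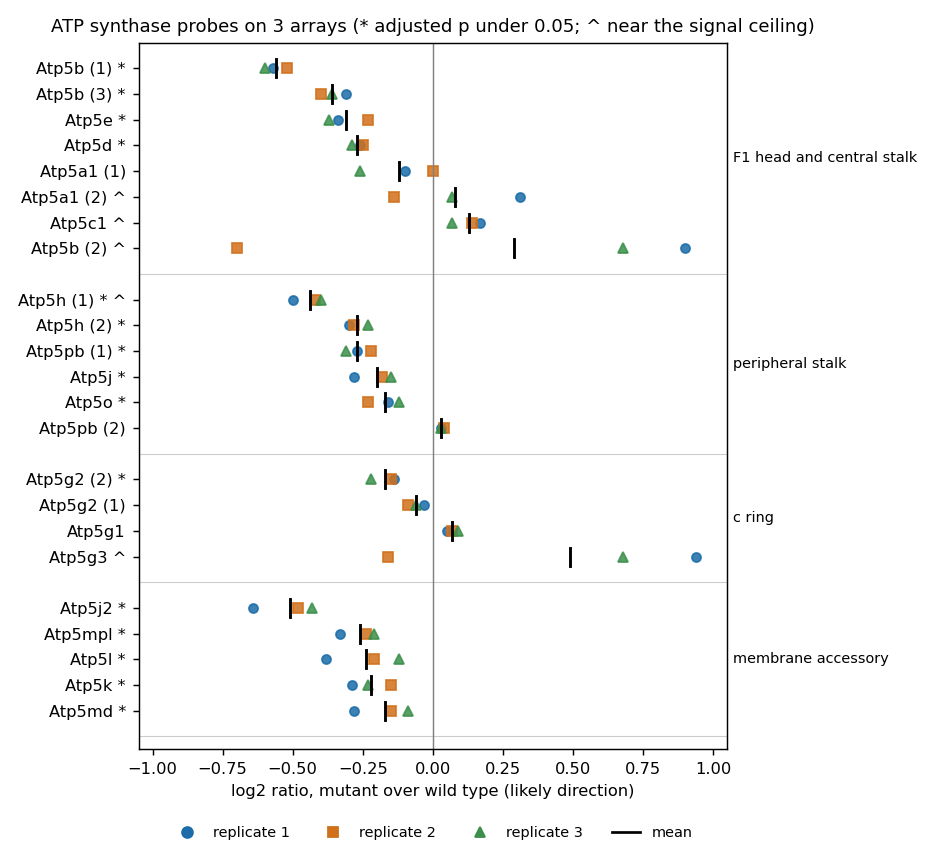
Log2 ratio of each tested ATP synthase probe on replicates 1 to 3 (points), with the mean as a bar, grouped by part of the enzyme; numbers in parentheses separate probes of a gene, in order of probe name. All 5 membrane accessory genes sit left of 0 on all 3 arrays, and Atp5b (2) and Atp5g3 spread widely, with replicate 2 apart from the others.

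The peripheral stalk, which holds the head still against rotation, and the accessory subunits in the membrane were lower almost throughout. Atp5h, the d subunit of the stalk, read -0.50, -0.42 and -0.40 at probe A_51_P264186 (mean -0.44 ± 0.05, limma adjusted p = 0.00312). Its other probe read -0.30, -0.28 and -0.23 (mean -0.27 ± 0.04, limma adjusted p = 0.00667), so the 2 probes fell by different amounts on every array. Of the 6 stalk probes, 5 were lower, with Atp5j at -0.20 ± 0.07 and Atp5o, which ties the stalk to the head, at -0.17 ± 0.05. The exception was a probe of Atp5pb at 0.03, with 0.03, 0.04 and 0.03 on the 3 arrays, although the other probe of that gene was at -0.27 ± 0.04 (limma adjusted p = 0.00727). All 5 accessory genes of the membrane part were lower. Atp5j2, the f subunit, read -0.64, -0.48 and -0.43 (mean -0.51 ± 0.11, SD, n = 3, limma adjusted p = 0.00348), equal to 70.0% of wild type. Atp5mpl, Atp5l, Atp5k and Atp5md ran from -0.26 to -0.17, with limma adjusted p from 0.00928 to 0.0469. Without replicate 1 limma adjusted p ranged from 0.0947 (Atp5mpl) to 0.306 (Atp5md) in these 4 genes. Atp5md lost its call in 8 of 13 other fits and Atp5l in 5. Among the called stalk probes it ran from 0.0323, at the first Atp5h probe, to 0.179, at Atp5j, and the first Atp5h probe alone kept its call. The Atp5k promoter printed above has its nuclear respiratory factor 1 match at position -50, and of the 3 motifs the Atp5j2 window has only that of YY1, at position 24.

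The c ring is the rotor through which protons pass. Atp5g1, Atp5g2 and Atp5g3 encode the same mature peptide behind different import sequences. Atp5g1 read 0.05, 0.07 and 0.09 (mean 0.07 ± 0.02) and was not called (limma adjusted p = 0.197). Atp5g2 read -0.03, -0.09 and -0.06 at its brighter probe, also not called, and -0.14, -0.15 and -0.22 at the other, which was called (mean -0.17 ± 0.04, limma adjusted p = 0.0249). That call was lost in 5 of 13 other fits, with adjusted p up to 0.154. Atp5g3 lay at the top of the signal range. Of the 4 c ring probes 1 was lower, or 25.0%, near the 26.7% of the 6883 brightest probes, to which all 4 belong. In the head and central stalk 4 of 8 probes were lower. The peripheral stalk had 5 of 6 lower and the accessory subunits 5 of 5, and these counts were not tested against each other. The ATP synthase inhibitor gene Atpif1, which is outside the rule, read -0.05 ± 0.06 and was not called.

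Over all its probes, cytochrome oxidase had calls in both directions, at shares near those of the array. Of its 17 tested probes 4 were lower and 2 higher, or 23.5% and 11.8%, beside 18.9% and 15.0% of all tested probes. Away from the top of the signal range 4 of 13 probes were lower (30.8%) and 0 higher. Cox4i1, the largest nuclear subunit and the site of its regulation by ATP, read -0.38, -0.44 and -0.37 (mean -0.40 ± 0.04, SD, n = 3, limma adjusted p = 0.00335), equal to 75.9% of wild type. Cox5b read -0.44, -0.38 and -0.30 (mean -0.37 ± 0.07, limma adjusted p = 0.00456). Cox6b1, which faces the intermembrane space, read -0.55, -0.56 and -0.35 (mean -0.48 ± 0.12, limma adjusted p = 0.00434). These 3 genes lay below 0 on every array and kept their call in all 13 other fits. Cox7a2 had probes at -0.16 ± 0.09 and -0.13 ± 0.03, of which the second passed (limma adjusted p = 0.0446) and lost its call in 7 of 13 other fits. The rises were Cox5a, at 0.65, 0.32 and 0.62 (mean 0.53 ± 0.18, limma adjusted p = 0.0065), and Cox6c, at 0.42, 0.07 and 0.48 (mean 0.32 ± 0.22, limma adjusted p = 0.0389). Both probes were near the top of the signal range and read lowest on replicate 2, the array with the opposite dyes. Cox6c lost its call without replicate 1 (limma adjusted p = 0.18), and Cox5a kept it (0.044). Cox5a and Cox5b, whose products both lie on the matrix face of the enzyme, moved in opposite directions.

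Tissue isoforms of cytochrome oxidase gave no call. The heart and muscle genes Cox6a2, Cox7a1 and Cox8b had mean signals of 589.8, 418.2 and 207.9. The median signal was 9476 over the member probes and 362 over all tested probes. Cox6a2 read 0.15, 0.16 and 0.60 (mean 0.30 ± 0.26, limma adjusted p = 0.0655). Cox7a1 read 0.15, 0.05 and 0.19 (mean 0.13 ± 0.07, limma adjusted p = 0.0766), and Cox8b 0.16, 0.12 and 0.05 (mean 0.11 ± 0.06, limma adjusted p = 0.0935). All 9 values were above 0, and 65.1% of all tested probes had 1 sign on all 3 arrays. Of the ubiquitous partners, Cox7a2 was below 0 on every array at both probes, and so was Cox8a. The partner Cox6a1 was flagged saturated and is described with the probes at the top of the signal range. Of the 3 heart and muscle genes 0 passed the limma test. Replicate 3 gave the highest value of Cox6a2, as it did for the thalamic markers, while probes of 6 muscle and heart genes averaged -0.03, -0.06 and 0.05. Their part in these values was not tested. Ucp1 and Odf1, from the lists of brown fat and testis markers, were reliable on 0 arrays, but other genes of both lists were tested. The 2 brown fat genes tested, of 3 listed, averaged 0.02, -0.04 and 0.01 with no call. The 4 testis genes tested, of 5 listed, averaged -0.20, -0.19 and -0.12 (1 of 5 probes lower, beside 18.9% of all tested probes). The testis isoform genes Cox6b2 (0.01 ± 0.01) and Cox7b2 (-0.10 ± 0.03) were not called. Among ubiquitous subunits Cox7b (-0.18 ± 0.16), Cox7c (0.01 ± 0.07), Cox8a (-0.08 ± 0.06) and the supercomplex factor gene Cox7a2l (0.01 ± 0.13) were not called either.

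**Figure D2:**
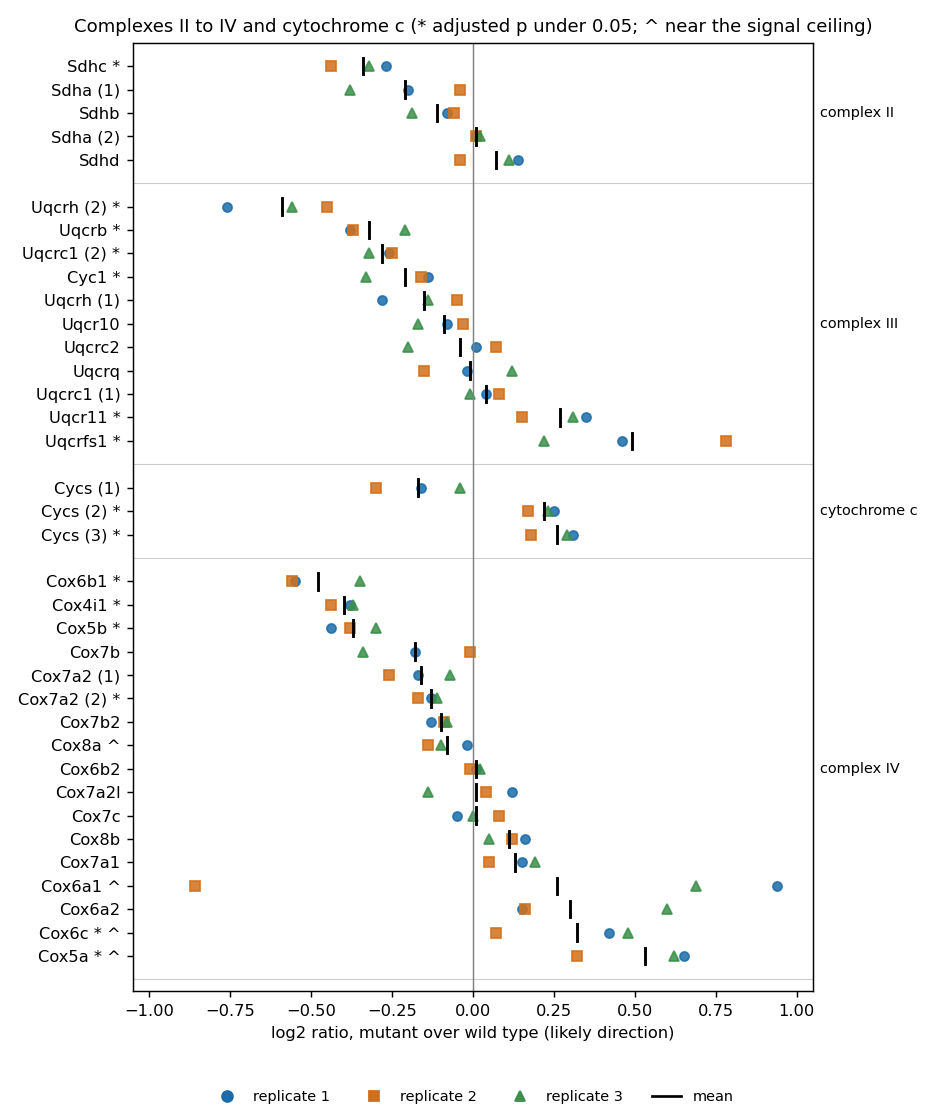
Log2 ratio of each tested probe of complexes II to IV and cytochrome c on replicates 1 to 3 (points), with the mean as a bar; numbers in parentheses separate probes of a gene, in order of probe name. Cox6b1, Cox4i1 and Cox5b lie left of 0 on all 3 arrays, whereas Cox6a1 spans -0.86 to 0.94.

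Complex III held falls and rises among subunits of 1 enzyme. Of its 11 probes 4 were lower and 2 higher, or 36.4% and 18.2%, beside 26.7% and 23.7% of the 6883 brightest probes, to which all 11 belong. Uqcrh, the hinge protein that bridges to cytochrome c, read -0.76, -0.45 and -0.56 at probe A_52_P541875 (mean -0.59 ± 0.16, SD, n = 3, limma adjusted p = 0.00431), equal to 66.5% of wild type and the lowest of all member probes. Its other probe read -0.28, -0.05 and -0.14 and was not called (limma adjusted p = 0.0808). Uqcrb, which binds near the ubiquinone site, read -0.38, -0.37 and -0.21 (mean -0.32 ± 0.10, limma adjusted p = 0.00859). Cyc1, the heme-bearing subunit that passes electrons to cytochrome c, read -0.14, -0.16 and -0.33 (mean -0.21 ± 0.11, limma adjusted p = 0.0315) and lost its call in 6 of 13 other fits, with adjusted p up to 0.107. Uqcrb lost it without replicate 1 (0.0743), and the Uqcrh probe kept it in all 13. The Rieske iron-sulphur gene Uqcrfs1 was higher, at 0.46, 0.78 and 0.22 (mean 0.49 ± 0.28, limma adjusted p = 0.021), equal to 140.3% of wild type. Its call was lost without replicate 1 (limma adjusted p = 0.081), within a range of 0.000339 to 0.081 over 13 other fits. Uqcr11 was higher at 0.35, 0.15 and 0.31 (mean 0.27 ± 0.11, limma adjusted p = 0.0159), also lost without replicate 1 (0.12). The core protein gene Uqcrc1 read -0.28 ± 0.04 at 1 probe (limma adjusted p = 0.00658, and 0.0623 without replicate 1) and 0.04 ± 0.04 at the other, and Uqcrc2, Uqcrq and Uqcr10 ran from -0.09 to -0.01 with no call.

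Complex II and cytochrome c were read by few probes. Sdhc, a membrane anchor of complex II, was lower at -0.27, -0.44 and -0.32 (mean -0.34 ± 0.09, SD, n = 3, limma adjusted p = 0.00644), equal to 78.9% of wild type. Sdhd, the other anchor, read 0.14, -0.04 and 0.11 (mean 0.07 ± 0.09) and was not called. The catalytic subunits were not called: Sdha read -0.20, -0.04 and -0.38 at its brighter probe and 0.01, 0.01 and 0.02 at the other, and Sdhb read -0.08, -0.06 and -0.19. Cytochrome c, which also triggers apoptosis when it leaves the mitochondrion, rose at 2 of the 3 probes of Cycs. A_52_P82247 read 0.31, 0.18 and 0.29 (mean 0.26 ± 0.07, limma adjusted p = 0.0102) and A_51_P261671 read 0.25, 0.17 and 0.23 (mean 0.22 ± 0.04, limma adjusted p = 0.0119). The third, A_51_P163587, read -0.16, -0.30 and -0.04 (mean -0.17 ± 0.13, limma adjusted p = 0.0781), so the probes of this gene lay on opposite sides of 0 on every array. Both calls were lost without replicate 1 (limma adjusted p = 0.0978 and 0.122).

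To compare the complexes, each gene was taken at its brightest probe and the median over the genes of a complex was computed on each array. ATP synthase had medians of -0.27, -0.21 and -0.12 (mean -0.20 ± 0.07, SD, n = 3) and complex IV of 0.00, -0.01 and -0.04 (mean -0.02 ± 0.02). Complex III had -0.02, -0.03 and -0.14 (mean -0.06 ± 0.07) and complex II -0.14, -0.05 and -0.26 (mean -0.15 ± 0.10). Of the 6 pairs of complexes, complex IV minus complex V differed most, at 0.27, 0.20 and 0.09 on the arrays, a mean of 0.18 ± 0.09 with 1 sign on all 3. Complex II minus complex IV was -0.14 ± 0.09 and complex II minus complex III -0.09 ± 0.06, with 1 sign on 3 arrays each. Complex II minus complex V (0.05 ± 0.16) and complex III minus complex V (0.14 ± 0.14) had the opposite sign on replicate 3. Complex III minus complex IV was -0.05 ± 0.05, no larger than its spread. No p-value is given for these medians, since the members were chosen with results known. With probes near the top of the signal range left out, complex V had -0.28, -0.22 and -0.23 and complex IV -0.09, -0.01 and -0.08, and complex IV minus complex V was 0.18 ± 0.03. Complex III minus complex V then read 0.26, 0.20 and 0.09, above 0 on all 3 arrays.

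**Figure D3:**
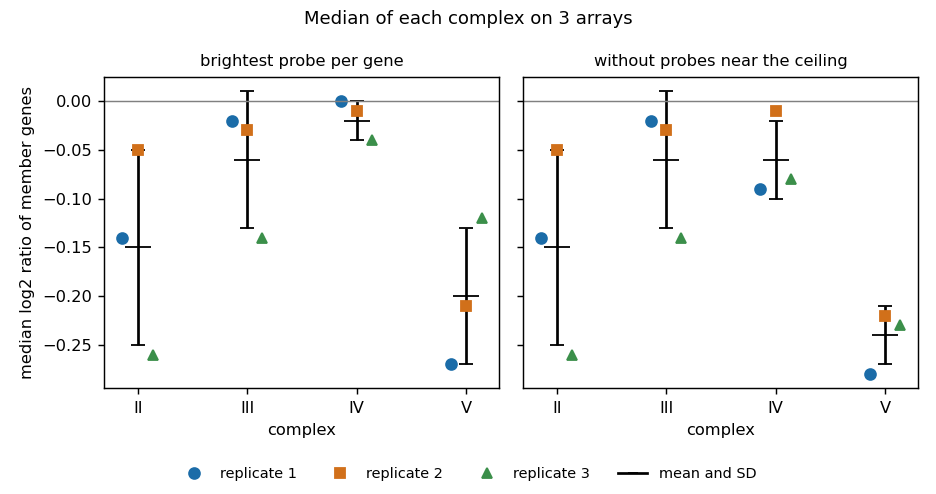
Median log2 ratio over the genes of complexes II to V on each array (points), with the mean and SD over the 3 arrays, by the brightest probe of each gene (left) and without probes near the signal ceiling (right). ATP synthase lies lowest on replicates 1 and 2 at left, and complex II lies lowest on replicate 3 in both panels.

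Probes of these genes reached the top of the signal range far more often than other probes. A probe was called near the ceiling where any channel read at least 80% of the highest gene-probe signal of that channel on any array, which held for 9 of 59 member probes, or 15.3%, and for 0.447% of all tested probes. On replicate 1 the highest wild-type signal was 39278 and the fifth highest 38723, or 98.6% of it, and the same crowding was seen in the other channels. The top of the range differed between the channels of an array. The highest mutant signals were 75054, 50708 and 74558 on replicates 1 to 3, and the highest wild-type signals 39278, 95082 and 46351. Cox6a1, the ubiquitous isoform of that oxidase subunit, read 0.94, -0.86 and 0.69 on the 3 arrays. Its mutant channel was flagged saturated on replicates 1 and 3 and its wild-type channel on replicate 2, which are the channels labelled Cy3. The saturated Atp5b probe, A_52_P328078, read 0.90, -0.70 and 0.68, and Atp5g3 read 0.94, -0.16 and 0.68, above 0 on the arrays with mutant RNA in Cy3 and below 0 on the other. Atp5g3 was flagged saturated in the mutant channel on 2 arrays. No size of change is given for these 3 probes. With all arrays 0 of them passed the limma test, at adjusted p of 0.594, 0.495 and 0.127. Without replicate 2, where the arrays left had 1 dye orientation, all 3 were called higher (limma adjusted p = 0.0156, 0.0153 and 0.0157).

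The difference between replicates 1 and 3 and replicate 2, which had the opposite dyes, was largest in the brightest of the signal ranges compared. Replicate 2 alone had that orientation, so an effect of the dyes and one of that array cannot be told apart. The mean ratio of replicates 1 and 3 minus that of replicate 2 had a median of 0.41 over all 123 tested probes near the ceiling and 0.00 over the 27408 others. Above a mean signal of 40000 the median over 82 probes was 0.64, whereas in each of the 9 lower ranges it lay between -0.06 and 0.02. For members it was 0.32 over the 9 near the ceiling and -0.02 over the other 50. Across all 59 member probes, ratios of replicates 1 and 2 correlated with r = 0.34, and across the 50 away from the ceiling with r = 0.89, a description over probes that share the same arrays. With the 9 probes left out, 23 member probes were lower and 4 higher, and the median was -0.17. Atp5h at A_51_P264186 and Cox8a were near the ceiling by this rule, yet read alike on the 3 arrays. In the limma fit with a dye term, replicate 2 alone stood for its orientation. That fit cannot decide whether the dyes had an effect, and no result for the dye is drawn from it.

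**Figure D4:**
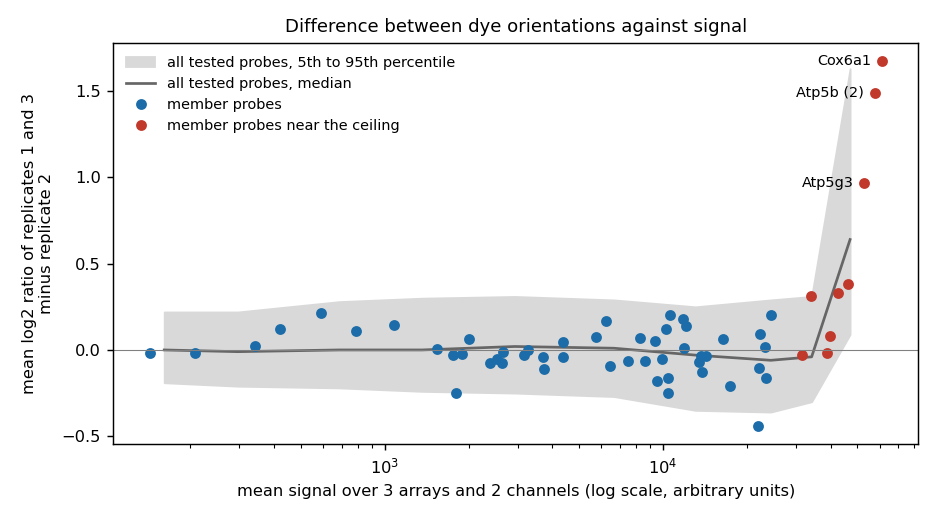
Mean log2 ratio of replicates 1 and 3 minus that of replicate 2 against mean signal (log axis), with the median and the 5th to 95th percentile of all tested probes and each member probe as a point. Cox6a1, Atp5b (2) and Atp5g3 rise away from 0 with the brightest probes of the array.

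Several genes were read differently by separate probes to 1 accession. Of the 10 member genes with over 1 tested probe, 7 had at least 1 called and 1 uncalled probe, 6 had probes of opposite sign and 0 had probes called in opposite directions. Atp5b, Atp5a1, Atp5pb, Uqcrc1, Cycs and Sdha were the 6. Of all tested probes 33.9% were called, and how often probes of other genes on the array differ was not computed. Which stretch of the transcript each probe covers was not used here, and RefSeq lists pseudogenes of several members, such as Atp5k, Atp5l, Uqcrh and Cox7c, whose share in these signals was not tested.

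Other genes of the pathway are read against the same shares of all tested probes, 18.9% lower and 15.0% higher. Complex I subunits, which feed electrons from NADH into the same chain, were lower at 21 of 43 probes (48.8%) and higher at 4 (9.3%). Of the 43, 40 lay among the 6883 brightest probes, of which 26.7% were lower and 23.7% higher. Ndufa10 read -0.50 ± 0.15 and Ndufs4 -0.42 ± 0.11 (limma adjusted p = 0.00526 and 0.0054). Assembly factors of complexes II to V, which build the enzymes without remaining in them, were lower at 6 of 34 probes (17.6%) and higher at 7 (20.6%), with a median of -0.02, shares near the background. Cox15, which makes the heme of cytochrome oxidase, was higher at 0.78, 0.60 and 0.61 (mean 0.66 ± 0.10, limma adjusted p = 0.00253). Atpaf1, the chaperone of the beta subunit of ATP synthase, was higher at 0.54, 0.41 and 0.51 (mean 0.49 ± 0.07, limma adjusted p = 0.00298). Cox11, which delivers copper to the oxidase, was higher at 0.43 ± 0.08 (limma adjusted p = 0.00363). These 3 factors had the smallest p of their list, each at its probe of smallest p, and 6 probes of the list were lower. Transcriptional regulators of mitochondrial genes were lower at 4 of 15 probes and higher at 4 (26.7% each). The coactivator gene Ppargc1b read -0.50 ± 0.09 and Gabpa, which encodes a GABP subunit, 0.26 ± 0.02 (limma adjusted p = 0.00336 and 0.00709). Each is given at its probe of smallest p. Mean signal was 366.9 for the Ppargc1b probe and 199.4 for the dim Gabpa probe, beside a median of 362 over all tested probes. Carriers and channels of the mitochondrial membranes were lower at 2 of 11 probes (18.2%) and higher at 1 (9.09%), with Vdac2 at 0.44 ± 0.10, Vdac1 at -0.26 ± 0.12 and the ADP/ATP carrier gene Slc25a5 at -0.31 ± 0.09 (limma adjusted p = 0.00412, 0.0203 and 0.00835).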

How the data were processed

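Per the labels' protocols, 500 ng of total RNA (integrity number at least 7) was amplified, dye-labelled and put on Agilent arrays with probes of 60 bases. The authors deposited 1 table per array with a linear intensity in 2 channels at 44290 spots, background-subtracted, normalized and corrected for the dye swap, per the deposited readme, which names GenePix and no normalization method. The authors also deposited a collapsed log2 ratio and a score, the signed fold of test over control, which was identical to the series' value table at all 44290 spots of each array. Medians of that value table were -1.01, -1 and 1. The tables use a decimal comma.

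Log2 ratios of the 2 channels were taken as they stood, spots of a probe were averaged, and probes flagged reliable (foreground over 2 times background) on at least 2 arrays were tested against 0 with limma 3.58.1 (lmFit, eBayes) in R 4.3.3, two-sided, with Benjamini-Hochberg adjustment over 27531 probes. Accessions without versions named 21437 of 41174 probes through a RefSeq table (GRCm38.p6). The test was tried on simulated data. The number of arrays limits the precision. Tables and plots used pandas 2.3.3 and matplotlib 3.10.9.

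The members, lists and rules were chosen with earlier results of these data known. Values on each array are given for Gtf2i, per complex the 3 genes with the smallest p and the highest and lowest ratios (by brightest probe), the isoform families, Cycs and the Sdh genes; list members are the 3 with the smallest p, of which 1 is not reported here. Probes of Atp5b, Atp5e, Atp5pb, Cox6c, Cyc1, Uqcrh and other members outside that rule were chosen after their values were seen. Alternatives changed the normalization, filter, background, log ratio column, dye term, weights, variance trend, replicates, call rule and probe per gene.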

Additional observations from a re-analysis of the deposited data

How the results depend on the processing

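Calls depended on replicate 1. Without each replicate in turn, 1 to 9 member probes were higher and 9 to 23 lower, while 3.37% to 15.9% and 5.37% to 20.0% of all tested probes were, and the brighter Gtf2i probe ran from -0.342 to -0.301 and lost its call without replicate 1 (limma adjusted p = 0.056). Of the 30 called member probes, 10 kept their call without replicate 1, 23 without replicate 2 and 27 without replicate 3, and 10 kept it in all 13 other fits: those of Sdhc, Cox4i1, Cox5a, Cox5b, Cox6b1 and Atp5j2, 2 of Atp5b, and 1 each of Uqcrh and Atp5h. The authors' rule of a B statistic above 0 left 1 probe higher and 12 lower, where 3.65% and 6.01% of all tested probes passed. Array weights called 17 higher and 33 lower, where 31.6% and 36.1% of all tested probes passed, with a weight of 5.84 on replicate 1. The median of member probes was -0.135 with the negative control level subtracted, -0.102 with a dye term, -0.165 without probes near the ceiling (chosen after seeing the data), and -0.12 to -0.096 without each replicate. Complex III read -0.14 with the probe of smallest p, complex II minus complex III -0.012 with that probe and 0.001 with the mean over probes, and complex III minus complex IV -0.122 with that probe. Complex IV read -0.06 without probes near the ceiling. The cause was not tested. The other medians and differences moved by less than 1 SD, and 0 of 826 single-probe values reversed a call. No paired analysis was possible because there is 1 group of arrays, so no replicate number is shared between groups; mutant and wild type are already paired within each array by the ratio. Of the member probes, 6 lie outside the 6883 brightest and 9 near the ceiling.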
